A study of Mus musculus with 12 samples.

Results

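The genes described here encode the mechanistic target of rapamycin complex 1 (mTORC1) and its nearest upstream regulators. They were chosen by name. The 10 genes are Mtor, Rptor, Mlst8, Akt1s1, Deptor, Rheb, Tsc1, Tsc2, Rragc and Rragd, out of 33219 rows of a gene count table. All 10 were found in the table, and 9 passed the filter on low counts. Rragd did not. The counts come from bulk RNA-seq of 12 samples in 4 groups of 3 mice.

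Each sample was RNA from tumor cells of MC38, a mouse colon adenocarcinoma line, grown under the skin of C57BL/6 mice that were 6 to 8 weeks old when bought. The WT groups carried MC38 cells with wild-type RAC1. The A159V groups carried MC38 cells in which RAC1, a small GTPase, was edited at its own locus to the A159V form, in both copies. The main A159V line of the study, named clone 9, was 1 edited clone, so the mutation and other differences between the lines cannot be told apart. The labels do not say which clone was sequenced. Mice received 100 μg of IgG or anti-PD1 every 3 days from day 3, and tumors were collected on day 13. Each genotype was studied with either antibody, and a group is named by its genotype and antibody. Tumor cells were enriched with a cell isolation kit, so RNA from other cells could remain.

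mTORC1 is a protein kinase complex on the lysosome that promotes protein, lipid and nucleotide synthesis when amino acids and growth factors are plentiful. MTOR is its kinase, RPTOR recruits substrates, and MLST8 stabilizes the kinase domain. AKT1S1 (PRAS40) and DEPTOR are bound inhibitors. RHEB is the small GTPase that switches the kinase on, and TSC1 and TSC2 form the complex that switches RHEB off. RRAGC and RRAGD are Rag GTPases that bring mTORC1 to the lysosome when amino acids are present. Control of mTORC1 is mostly at the protein level, which RNA counts do not measure.

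The samples held 14053582 to 21949942 counts, with a median of 18794752. Values are given as CPM, counts relative to the library's total after scaling between samples by trimmed means (TMM). Of 9 epithelial markers, at most 2 averaged 1 CPM or more in any group, and the highest sum over the list in any sample was 8.13 CPM. Epcam, Krt8 and Krt18, general epithelial markers, and Cdx2, an intestinal marker, were each at most 1.14 CPM in every sample. The markers that averaged 1 CPM or more were Vil1, at 0.71 to 1.81 CPM over all samples, and Cldn4. Cldn4 measured 2.00 to 5.26 CPM in A159V and at most 1.40 CPM in WT. The epithelial markers of the labelled adenocarcinoma were thus absent or low. Gene counts also do not read the edited codon, so the genotype was not checked here. WT IgG replicate 1 stood apart, since its log2 CPM fell with exon length by 0.226 per doubling of length, against slopes of -0.085 to 0.07 in the other 11 samples. The exons of Mtor span 10109 bases and those of Tsc2 9620, so values without this library are given where leaving it out moved a difference most.

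Mtor lies on chromosome 4 (chr4:148448611-148557683, mm10, plus strand). In WT IgG it measured 36.0, 55.1 and 64.2 CPM. In WT anti-PD1 it measured 72.7, 74.2 and 71.5 CPM. In A159V IgG it measured 84.7, 93.2 and 116.9 CPM, and in A159V anti-PD1 102.3, 87.0 and 88.5 CPM. Every A159V sample was above every WT sample, with the lowest values in WT IgG.

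**Figure D1:**
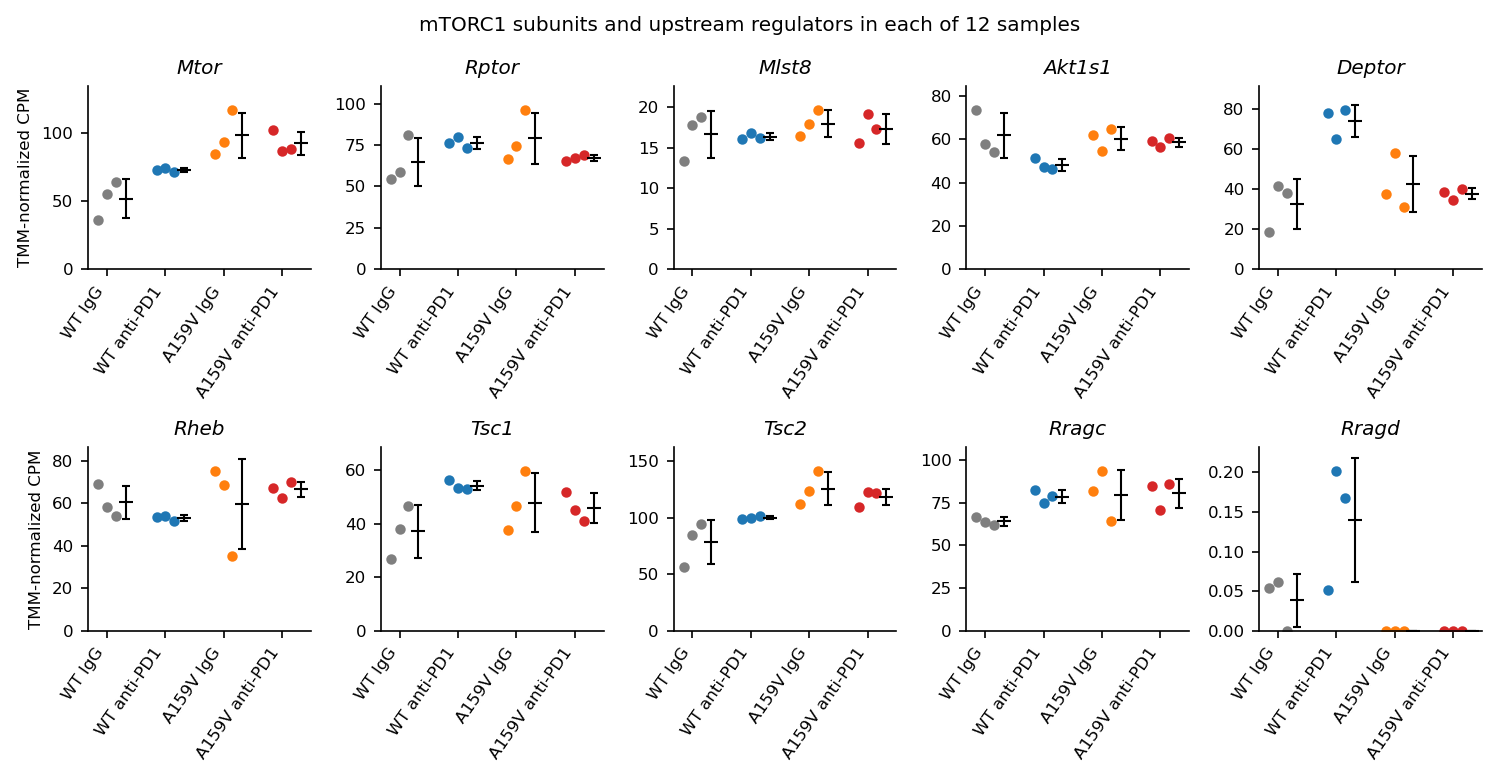
TMM-normalized CPM (y axis, from 0, a scale of its own in each panel) of the 10 genes in each of the 12 samples by group (x axis); dots are samples, and bars mark the mean ± SD (n = 3). Mtor and Tsc2 were above all WT samples in every A159V sample, Deptor was highest in the 3 WT anti-PD1 samples, and Rragd was close to 0 throughout.

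Under IgG, Mtor was 1.90-fold higher in A159V than in WT (98.3 ± 16.7 against 51.7 ± 14.4 CPM, SD, n = 3 each). On the log2 scale the difference was 0.93 ± 0.19 (SE), with an adjusted p of 0.00392 in edgeR's quasi-likelihood test with Benjamini-Hochberg adjustment over 14340 genes. A gene was called when its adjusted p was under 0.05 and its log2 fold change was beyond 0.3. It also held with a score of leukocyte markers as a covariate (0.89, adjusted p = 0.0359). Leaving out WT IgG replicate 1 made the difference 0.66, still called at an adjusted p of 0.0109. Without that library and with the trend on exon length removed, a setting chosen after seeing the data, it was 0.68 (adjusted p = 0.00672). When the model was fitted to these 2 groups alone the difference was 0.86 and the call was lost (adjusted p = 0.0535). In samples of mixed cells, a change in the share of a cell type and a change of RNA per cell cannot be told apart.

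Under anti-PD1, the groups did not overlap for Mtor either, at 92.6 ± 8.41 in A159V against 72.8 ± 1.34 CPM in WT. The log2 difference of 0.35 ± 0.19 missed the threshold (adjusted p = 0.203). With the trend on exon length removed it was 0.44 and was called (adjusted p = 0.0337). The 2 genotype differences were not shown to differ from each other, because the interaction of genotype and anti-PD1 was -0.58 ± 0.26 (adjusted p = 0.281).

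Tsc2, which encodes the GTPase-activating subunit of the TSC complex, lies on chromosome 17 (chr17:24595816-24632630, minus strand). Its values in WT IgG were 56.4, 85.0 and 94.7 CPM, and in WT anti-PD1 98.9, 99.7 and 101.5 CPM. In A159V IgG they were 112.4, 124.2 and 141.1 CPM, and in A159V anti-PD1 109.9, 123.3 and 121.9 CPM. As for Mtor, all A159V samples were above all WT samples.

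Under IgG, Tsc2 was 1.60-fold higher in A159V (log2 0.68 ± 0.17, adjusted p = 0.0104 in edgeR), a call that held at 0.43 when WT IgG replicate 1 was left out (adjusted p = 0.0321). It was lost when these 2 groups were fitted alone (0.61, adjusted p = 0.108) and when the leukocyte score was a covariate (0.63, adjusted p = 0.077). Under anti-PD1 the log2 difference was 0.24 ± 0.17 (adjusted p = 0.32). The 3′ exons of Tsc2 share 693 bases, 7.2% of its exon length, with Pkd1 on the other strand, and the strand setting of the counting is not stated, so some Tsc2 counts could be of Pkd1.

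The promoters of Mtor and Tsc2 are shown because these 2 genes moved together between genotypes under IgG. Each run is 300 bases of RefSeq sequence (GRCm38.p6), from 250 bases before the transcription start to 50 after it, written 5′ to 3′ on the gene's strand. The Mtor window is chr4:148448332-148448631 (plus strand) and the Tsc2 window chr17:24632578-24632877 (minus strand). Capitals mark CCGGAAG, a core letter string of ETS factor motifs, on either strand.
Mtor: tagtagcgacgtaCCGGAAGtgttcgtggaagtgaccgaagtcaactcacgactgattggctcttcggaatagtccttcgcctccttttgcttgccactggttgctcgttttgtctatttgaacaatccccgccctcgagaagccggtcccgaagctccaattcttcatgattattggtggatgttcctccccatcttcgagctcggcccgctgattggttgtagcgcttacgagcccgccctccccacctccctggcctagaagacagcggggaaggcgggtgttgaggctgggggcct
Tsc2: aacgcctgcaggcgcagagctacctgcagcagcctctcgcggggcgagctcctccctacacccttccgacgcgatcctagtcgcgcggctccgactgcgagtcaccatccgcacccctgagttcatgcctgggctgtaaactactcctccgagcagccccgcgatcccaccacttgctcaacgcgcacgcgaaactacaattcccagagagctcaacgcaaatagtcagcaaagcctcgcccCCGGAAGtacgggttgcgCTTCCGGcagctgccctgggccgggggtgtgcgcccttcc

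In Mtor the match began 237 bases before the start. In Tsc2 there were 2 matches, 1 on each strand, at 8 bases before and 10 bases after the start. Promoters were listed for 9 of the 10 genes, all but Deptor. CCGGAAG stood in 3 of the 9 (Mtor, Tsc2 and Akt1s1), against 8.86% of all 32851 promoters of the same length that were counted, which leave out 1 chromosome. The E-box CACGTG, the letters bound by TFEB and related factors, stood in 2 of the 9, Rragc and Rheb, at 112 and 96 bases before the start, against 7.15% of all. The amino acid response letters TGATGNAA were in none of the 9 and in 3.97% of all. The GC box GGGCGG was in 4 of the 9 and in 35.7% of all. All 4 strings were searched on both strands. The 3 genes with CCGGAAG did not share a direction in the counts, as Akt1s1 was not higher in A159V under IgG.

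Neither of the other structural subunits was called between genotypes. Rptor (chr11:119602905-119899576, plus strand) ranged from 54.4 to 81.1 CPM in WT IgG and from 66.7 to 96.2 CPM in A159V IgG. The log2 difference was 0.29 ± 0.17 (adjusted p = 0.208), and 0.12 without WT IgG replicate 1. Its highest value in each IgG group came from the library that was also highest for Mtor, WT IgG replicate 4 and A159V IgG replicate 5. Under anti-PD1, Rptor was 67.2 ± 1.61 CPM in A159V and 76.3 ± 3.55 CPM in WT, groups that did not overlap, with a log2 difference of -0.18 ± 0.17 (adjusted p = 0.463). Mlst8 (chr17:24473551-24479078, minus strand) stayed within 13.4 to 19.7 CPM in all 12 samples, and its genotype differences were 0.11 ± 0.15 under IgG and 0.08 ± 0.15 under anti-PD1, neither called, and -0.09 under IgG without WT IgG replicate 1. Its exons overlap those of Bricd5 on the other strand over 22.5% of their length, and Bricd5 had 0 counts.

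Of the inhibitor genes, Deptor differed between the genotypes and Akt1s1 did not pass the test. Deptor (chr15:55112317-55259271, plus strand) measured 18.5, 41.7 and 38.0 CPM in WT IgG. In WT anti-PD1 it measured 78.0, 65.0 and 79.5 CPM. In A159V IgG it measured 37.8, 58.2 and 31.3 CPM, and in A159V anti-PD1 38.8, 34.5 and 40.2 CPM. The 3 WT anti-PD1 samples were above the other 9.

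Under anti-PD1, Deptor was at 0.51 times the WT level in A159V (37.8 ± 2.96 against 74.2 ± 7.95 CPM). The log2 difference was -0.97 ± 0.27 (adjusted p = 0.0232 in edgeR). Under IgG the groups overlapped, with a difference of 0.37 ± 0.27 (adjusted p = 0.32), which was 0.02 without WT IgG replicate 1. In WT tumors Deptor was 2.27-fold higher with anti-PD1 than with IgG, at 1.18 ± 0.27 on the log2 scale, which missed the threshold in edgeR (adjusted p = 0.0587). Leaving out WT IgG replicate 1 made it 0.89 (adjusted p = 0.119) and leaving out WT IgG replicate 4 made it 1.30, which was called (adjusted p = 0.0153). DESeq2 called this difference (adjusted p = 0.00293). In A159V tumors it was -0.17 ± 0.27. The interaction was -1.35 ± 0.38 with an adjusted p of 0.186 in edgeR and 0.0406 in DESeq2.

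The call on Deptor under anti-PD1 was lost in 5 of the 6 fits that left out 1 sample of the 2 groups, with adjusted p from 0.0411 to 0.0846 over the 6, and it held only without WT anti-PD1 replicate 2. It was also lost when the leukocyte score was a covariate (log2 -1.85, adjusted p = 1.00), a fit in which 2 of 14340 genes were called. Some markers of other cells, but not all of the lists, were highest in the group in which Deptor was high. Ptprc, the pan-leukocyte antigen CD45, measured 9.0, 14.2 and 7.5 CPM in WT anti-PD1, at most 2.8 CPM in WT IgG and at most 0.3 CPM in A159V. Of 15 leukocyte markers, 8 averaged 1 CPM or more in WT anti-PD1 and 4 in each other group, and 1 had no count in WT anti-PD1 and 1 in A159V anti-PD1. Their sum was 51.1 to 77.7 CPM in WT anti-PD1, 49.3 to 54.0 in A159V anti-PD1, 47.8 to 64.4 in A159V IgG and 32.9 to 37.7 in WT IgG. The sum of 6 fibroblast markers was 399 to 681 CPM in WT anti-PD1 and 281 to 696 in WT IgG, against 166 to 242 in A159V IgG and 191 to 237 in A159V anti-PD1, with 5 or 6 of them at 1 CPM or more in each group and none without counts. Of these, Acta2 went the other way under anti-PD1, at most 0.60 CPM in WT and 1.28 to 2.89 CPM in A159V. The sum of 4 skeletal muscle markers was 1.24, 63.4 and 104 CPM in WT anti-PD1 and at most 15.2 CPM elsewhere. The sum of 5 endothelial markers was 13.01 to 14.65 CPM in WT anti-PD1 and 4.995 to 9.987 CPM in the other 9 samples, so that, as for Deptor, every WT anti-PD1 sample lay above all others. Cdh5 made up most of it, Emcn had no count in either anti-PD1 group, and 2 of the 5 averaged 1 CPM or more in each WT group and 1 in each A159V group. The part of these cells in the Deptor values was not tested.

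Akt1s1 (chr7:44848991-44855421, plus strand) measured 73.6, 57.7 and 54.4 CPM in WT IgG and 51.5, 47.1 and 46.4 CPM in WT anti-PD1. It measured 62.0, 54.5 and 64.6 CPM in A159V IgG and 59.1, 56.4 and 60.6 CPM in A159V anti-PD1. The WT anti-PD1 samples were the lowest, in reverse of Deptor. The log2 difference between WT anti-PD1 and WT IgG was -0.36 ± 0.13 (adjusted p = 0.121), or -0.22 without WT IgG replicate 1, and the genotype difference under anti-PD1 was 0.28 ± 0.13 (adjusted p = 0.151).

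Rheb, the activator, lies at chr5:24802823-24842624 (minus strand). It measured 74.9 and 68.7 CPM in A159V IgG replicates 1 and 2 but 35.3 CPM in replicate 5, the lowest value of all 12 samples. Elsewhere it ranged from 51.4 to 69.7 CPM. The A159V IgG mean of 59.6 ± 21.3 CPM was close to the WT IgG mean of 60.4 ± 7.69 CPM. Under anti-PD1 the A159V samples (66.5 ± 3.597 CPM) were above the WT samples (52.9 ± 1.27 CPM), by 0.33 ± 0.22 on the log2 scale (adjusted p = 0.296).

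Tsc1 (chr2:28641228-28691167, plus strand), which encodes the partner that stabilizes TSC2, was not called in either genotype comparison. It measured 26.9, 38.2 and 46.6 CPM in WT IgG and 37.6, 46.6 and 59.6 CPM in A159V IgG, and the groups overlapped (log2 0.36 ± 0.20, adjusted p = 0.194, and 0.12 without WT IgG replicate 1). Under anti-PD1 it was 45.9 ± 5.49 CPM in A159V and 54.3 ± 1.72 CPM in WT (log2 -0.24 ± 0.20, adjusted p = 0.414). Within WT it was 0.54 ± 0.20 higher with anti-PD1, which missed the threshold (adjusted p = 0.118), and 0.35 higher without WT IgG replicate 1.

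Rragc (chr4:123917446-123936997, plus strand) measured 66.8, 63.4 and 61.8 CPM in WT IgG and 82.1, 74.7 and 78.6 CPM in WT anti-PD1. It measured 81.6, 93.2 and 64.1 CPM in A159V IgG and 84.7, 70.5 and 86.1 CPM in A159V anti-PD1. WT IgG was the lowest group, but A159V IgG replicate 5 fell inside its range. The genotype difference under IgG was 0.32 ± 0.14 (adjusted p = 0.114), and 0.37 without that replicate, when it was called (adjusted p = 0.0291).

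Rragd (chr4:32983037-33022180, plus strand), the paralog that can take the place of Rragc, was almost unread. WT IgG gave 1, 1 and 0 counts and WT anti-PD1 1, 3 and 3 counts. All 6 A159V samples gave 0 counts. No library passed 3 counts, the number that a count of 0 still allows, so no fold is given. Rragb, the X-linked paralog of Rraga, was near 0 in the same way, with 5 counts over WT IgG, 5 over WT anti-PD1 and 0 over each A159V group. The Rag genes that were well counted were Rraga, at 115 to 151 CPM, and Rragc.

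Levels between genes were compared per kb of exon. Over all 12 samples the order was Rragc (22.6 CPM per kb), Akt1s1 (18.7), Tsc2 (10.99), Mtor (7.80), Rheb (7.75), Rptor (5.33), Deptor (5.27), Tsc1 (3.92), Mlst8 (3.85) and Rragd (0.00863). Rragc was above 82.3% of the 14340 tested genes on this scale, Mtor above 57.8% and Mlst8 above 41.2%. The order moved between groups. In WT IgG, Akt1s1 and Rragc overlapped at 20.1 ± 3.35 and 19.2 ± 0.77 CPM per kb, and Mtor, at 5.12 ± 1.43, lay below Rheb at 7.82 ± 1.00 with no overlap. In A159V IgG, Mtor stood at 9.72 ± 1.65 CPM per kb and overlapped Rheb at 7.72 ± 2.76. In WT anti-PD1, Deptor took the fourth place at 8.36 ± 0.90 CPM per kb, where it overlapped Mtor at 7.20 ± 0.13. Mlst8 and Tsc1 were neighbours at the low end and overlapped in both A159V groups, at 4.05 ± 0.37 and 4.05 ± 0.93 in A159V IgG and at 3.91 ± 0.41 and 3.88 ± 0.46 in A159V anti-PD1.

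Counted together, 2 of the 9 tested genes were called between the genotypes under IgG, Mtor and Tsc2, both higher in A159V. Among all 14340 genes tested, 28% were called in that comparison, 15.6% higher and 12.4% lower. The share called higher depended on scaling, with 2231 higher of 4010 called in TMM, 1680 of 3732 with RLE size factors and 1337 of 3650 with upper-quartile scaling. Upper-quartile scaling brought the median of all genes to -0.12 on the log2 scale, from 0.02 in TMM, and Mtor and Tsc2 stayed called under it at 0.80 and 0.55. The groups did not overlap for 2 of the 9, against 35.8% of all genes. The median log2 difference was 0.32 over the 9 genes and 0.02 over all genes, with 7 of the 9 above 0. Without WT IgG replicate 1 the median over the 9 was 0.12.

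Under anti-PD1, 1 of the 9 was called, Deptor, lower in A159V. Of all genes 21.4% were called, 11.2% higher and 10.2% lower, or 1613 higher of 3075 called in TMM, 1123 of 2795 with RLE size factors and 931 of 2719 with upper-quartile scaling. The groups did not overlap for 7 of the 9, against 56.1% of all genes, and these 7 were Mtor, Akt1s1, Rheb and Tsc2 with A159V above, and Rptor, Deptor and Tsc1 with A159V below. The median over the 9 genes was 0.08, which turned to -0.01 with upper-quartile scaling, and over all genes 0.06.

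**Figure D2:**
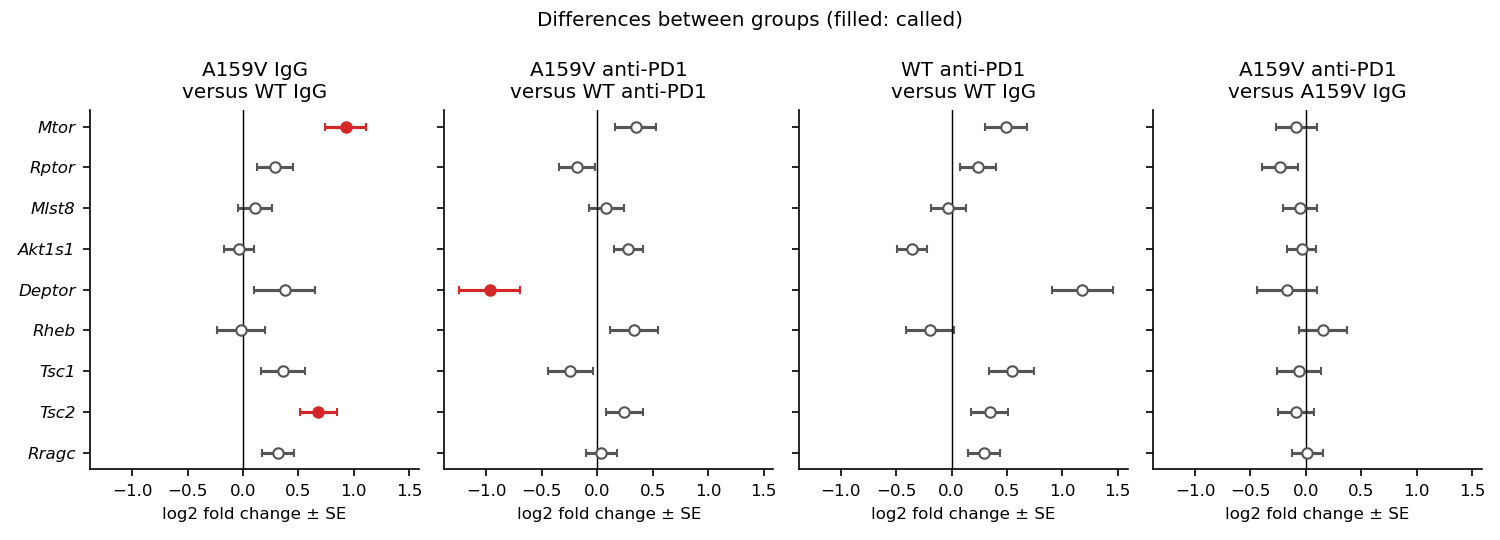
Log2 fold change ± SE (x axis) of the 9 tested genes in 4 comparisons, with called genes as filled red dots. Mtor at 0.93 and Tsc2 at 0.68 were called under IgG, Deptor at -0.97 was called under anti-PD1, and no gene was called between treatments.

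Within WT tumors, anti-PD1 against IgG gave 0 called genes of the 9 in edgeR, with 4 at an unadjusted p under 0.05 (Deptor, Mtor, Tsc1 and Akt1s1) and 1 called by DESeq2 and 1 by voom and limma, Deptor in both. Of all 14340 genes 0.628% were called, 3937 had an unadjusted p under 0.05 and DESeq2 called 1478. The groups did not overlap for 7 of the 9, against 34.6% of all genes. Mtor was 0.49 ± 0.19 higher with anti-PD1 (adjusted p = 0.124), a difference of 0.28 without WT IgG replicate 1. Leaving out WT IgG replicate 4 raised the calls over all genes from 90 to 3458 of 14646, and 5 of the 9 were then called. Those were Mtor, Akt1s1, Deptor, Tsc1 and Tsc2.

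Within A159V tumors no treatment difference was detected. No gene of the 9 was called by edgeR or DESeq2, 0 had an unadjusted p under 0.05, and the groups overlapped for all 9, against 11% of all genes whose groups did not overlap. Of all genes 0% were called in edgeR, 521 had an unadjusted p under 0.05, and DESeq2 called 2. The log2 differences ran from -0.23 ± 0.17 for Rptor to 0.16 ± 0.22 for Rheb. For the interaction, 0 of the 9 were called in edgeR, and 0.00697% of all genes. Of the 9, 2 had an unadjusted p under 0.05 (Deptor and Mtor), as did 2517 of all 14340 genes. DESeq2 called 1 of the 9 and 295 of all genes. These comparisons share groups, so their values are not independent of each other.

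The wider pathway was read from 97 other genes in 9 lists, of which 92 were tested. Under IgG, 29 of the 92 were called, 23 higher and 6 lower in A159V, with a median log2 difference of 0.17. Over all genes tested 28% were called, close to this share. The split depended on scaling, since RLE size factors gave 16 genes higher and 8 lower, and upper-quartile scaling 12 higher and 9 lower. Leaving out WT IgG replicate 2 gave 15 calls, leaving out A159V IgG replicate 2 gave 19 and leaving out WT IgG replicate 1 gave 22. Calls over all genes were then 2925, 2578 and 3275, against 4010 with every sample. Under anti-PD1, where 21.4% of all genes were called, 19 of the 92 were called, 11 higher and 8 lower, but the balance turned with scaling, as RLE size factors gave 6 genes higher and 10 lower, and upper-quartile scaling 3 higher and 12 lower. There, leaving out WT anti-PD1 replicate 1, 2 or 3 gave 10, 11 and 8 calls and leaving out A159V anti-PD1 replicate 3 gave 9. Calls over all genes were then 2169, 1983, 1519 and 1672, against 3075 with every sample. In WT tumors 1 was called between treatments, Irs2 (28 without WT IgG replicate 4), and in A159V tumors and for the interaction 0 were called, with 3 and 23 at an unadjusted p under 0.05 and 0 and 2 called by DESeq2. Of all 14340 genes, 521 and 2517 had an unadjusted p under 0.05, and DESeq2 called 2 and 295. Without WT IgG replicate 4 the interaction gave 15 calls, and 1182 over all genes.

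**Figure D3:**
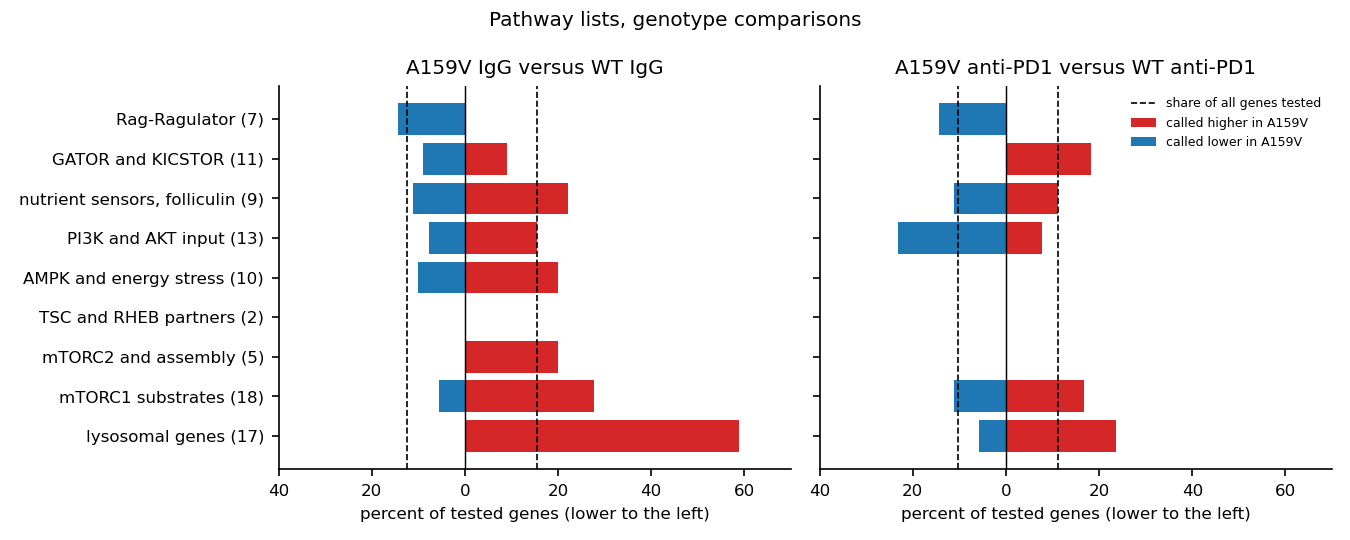
Percent of the tested genes of each pathway list (number tested in brackets) called higher in A159V (red, to the right) or lower (blue, to the left) under IgG and under anti-PD1; dashed lines give the same shares over all genes tested. Under IgG 10 of 17 lysosomal genes were called higher and none lower with TMM scaling, and 6 higher and none lower with upper-quartile scaling. The list labelled mTORC1 substrates also holds genes that act downstream of them.

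The lysosome is where mTORC1 is switched on, and the list of its genes had more calls under IgG than the other 8 lists. Of 17 tested lysosomal genes 10 rose and 0 fell, with a median of 0.46, where 15.6% of all genes rose and 12.4% fell. With upper-quartile scaling 6 rose and 0 fell (median 0.31), without WT IgG replicate 1 it was 6 and 1 (0.35), and without WT IgG replicate 2 it was 6 and 0 (0.38). The summed leukocyte markers given above were also higher in A159V IgG with no overlap. Most of that sum was Cd68, a lysosomal protein of macrophages, at 33.6 to 50.1 against 20.02 to 25.32 CPM in WT IgG. Lyz2 and Itgax were also higher with no overlap. Ptprc, Nkg7 and Itgam went the other way, at most 0.21, 0.11 and 0.096 CPM in A159V IgG. In WT IgG they reached 2.81, 0.60 and 0.25 CPM. The summed fibroblast markers were lower in A159V IgG with no overlap, as were Col1a1, Dcn and Lum. Col1a2, Acta2 and Pdgfra overlapped. Pdgfra had the higher values in A159V IgG, at 62.9 to 85.0 CPM against 26.3 to 69.0 CPM in WT IgG. The part of other cells in the lysosomal values was not tested. Lamp1, a membrane protein of lysosomes, was 1.63-fold higher in A159V (810 ± 51.6 against 496 ± 12.9 CPM, adjusted p = 0.00137 in edgeR). Ctsb, a cysteine protease, was 1.77-fold higher (adjusted p = 0.000981). Ctsa, a serine carboxypeptidase, was 1.60-fold higher (adjusted p = 0.00335). When the 2 IgG groups were fitted alone, the calls on Lamp1 and Ctsa were lost (adjusted p = 0.0513 and 0.0764). Under anti-PD1, 4 of the 17 rose and 1 fell, with a median of 0.11, and with upper-quartile scaling 0 rose and 1 fell. Ctsa was 1.45-fold higher (adjusted p = 0.0129, and 0.0566 with upper-quartile scaling), and Sgsh, a heparan sulfate sulfatase, fell to 0.41 times (adjusted p = 0.00526).

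Of 18 genes in a list of mTORC1 substrates and genes that act downstream of them, 5 rose and 1 fell under IgG, and 3 rose and 2 fell under anti-PD1. Under IgG it was 2 and 0 without WT IgG replicate 2, and 3 and 3 with the trend on exon length removed. Tfeb, a transcription factor of lysosomal genes that mTORC1 holds in the cytoplasm, measured 16.3, 17.1 and 14.3 CPM in WT IgG and 16.8, 12.7 and 15.3 CPM in WT anti-PD1. It measured 25.6, 28.1 and 31.6 CPM in A159V IgG and 24.2, 27.0 and 28.9 CPM in A159V anti-PD1. The genotypes did not overlap, and the log2 differences were 0.84 ± 0.15 in both treatments (adjusted p = 0.00172 and 0.002). Eef2k, the kinase of elongation factor 2 that S6 kinase inhibits, was also higher, by 0.95 ± 0.13 under IgG (adjusted p = 0.00044) and 0.57 ± 0.13 under anti-PD1 (adjusted p = 0.00931). Pdcd4, a translation inhibitor degraded after S6 kinase acts on it, fell by 0.69 under IgG (adjusted p = 0.0463, a call lost in 4 of the 6 fits without 1 replicate) and fell by 1.28 under anti-PD1 (adjusted p = 0.0025).

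The best known substrates gave mixed values. Eif4ebp1, a repressor of cap-dependent translation, was 0.16 ± 0.18 under IgG (adjusted p = 0.554), where it was called at 0.42 with both WT IgG replicate 1 and the trend on exon length removed, a setting chosen after seeing the data (adjusted p = 0.0209), and rose by 0.62 ± 0.18 under anti-PD1 (adjusted p = 0.03). That call was lost in each of the 6 fits without 1 replicate and with RLE (adjusted p = 0.0579) or upper-quartile scaling (adjusted p = 0.0858). Rps6kb1, which encodes S6 kinase 1, was -0.22 ± 0.16 and -0.12 ± 0.16, neither called by edgeR, though the first was called at -0.42 with the trend on exon length removed (adjusted p = 0.0305). Ulk1, the autophagy kinase, fell by 0.57 under anti-PD1 (adjusted p = 0.0279), a call also lost in each of the 6 fits without 1 replicate.

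Among amino acid sensors, 2 of 9 rose and 1 fell under IgG, and 1 rose and 1 fell under anti-PD1. Without WT IgG replicate 2 none rose and 1 fell under IgG, and DESeq2 gave 1 that rose and 4 that fell under anti-PD1. Sesn1, a leucine-binding inhibitor of the pathway, measured 20.9, 26.1 and 28.8 CPM in WT IgG and 31.9, 27.5 and 48.1 CPM in WT anti-PD1. It measured 14.3, 14.6 and 12.4 CPM in A159V IgG and 13.3, 12.1 and 11.4 CPM in A159V anti-PD1, below all WT samples. It fell by 0.88 under IgG (adjusted p = 0.00705) and fell by 1.55 under anti-PD1 (adjusted p = 0.000298). Castor1, an arginine sensor, rose by 0.73 ± 0.16 under anti-PD1 (adjusted p = 0.00651). Flcn, which encodes the activator of the RRAGC and RRAGD proteins, was 0.40 ± 0.16 under IgG and -0.42 ± 0.16 under anti-PD1 (adjusted p = 0.0788 and 0.0797). DESeq2 called the second, at -0.49 (adjusted p = 0.0282), and its interaction of -0.82 ± 0.23 was not called (adjusted p = 0.176).

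In the Rag and Ragulator list, Slc38a9 was the 1 called gene of 7 in both genotype comparisons. SLC38A9 is the lysosomal arginine transporter that signals to the Rags. It measured 15.2, 19.9 and 17.1 CPM in WT IgG and 19.5, 22.5 and 19.3 CPM in WT anti-PD1, against 7.56, 7.40 and 9.09 CPM in A159V IgG and 10.4, 10.05 and 8.68 CPM in A159V anti-PD1. All A159V samples were lower. It fell by 1.12 under IgG (adjusted p = 0.000457) and fell by 1.07 under anti-PD1 (adjusted p = 0.000561). Rraga did not differ by the test, at 0.08 ± 0.12 and 0.02 ± 0.12.

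In the list of GATOR and KICSTOR genes, whose products control the Rags, 1 of 11 rose and 1 fell under IgG, and 2 rose and 0 fell under anti-PD1. Kptn, a KICSTOR subunit, fell by 0.52 under IgG (adjusted p = 0.0286), a call lost without A159V IgG replicate 1 or 2 (adjusted p = 0.113 and 0.114). Itfg2, another subunit, rose by 0.45 ± 0.11 under anti-PD1 (adjusted p = 0.015, and 0.0723 with upper-quartile scaling), a call lost in 3 of the 6 fits without 1 replicate.

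Growth factor input held 2 genes of 13 that rose and 1 that fell under IgG, and 1 that rose and 3 that fell under anti-PD1. Without WT IgG replicate 2, or with upper-quartile scaling, it was 0 and 1 under IgG. Akt1, the kinase that inactivates the TSC complex, rose by 0.43 ± 0.11 under IgG (adjusted p = 0.0115) and 0.41 ± 0.11 under anti-PD1 (adjusted p = 0.0182, and 0.0824 with upper-quartile scaling), where 3 of the 6 fits without 1 replicate lost the call. Pik3cb, a catalytic subunit of PI3K, fell by 0.80 under IgG (adjusted p = 0.0253), and was at -0.39 with the call lost without WT IgG replicate 4 (adjusted p = 0.0817). The call was also lost without A159V IgG replicate 2 (adjusted p = 0.0869). Irs2, an adaptor of the insulin receptor, was at 0.219 to 0.251 CPM in WT IgG, 1.86 to 2.95 CPM in WT anti-PD1 and at most 0.436 CPM in A159V. It rose by 3.37 ± 0.48 with anti-PD1 in WT (adjusted p = 0.0166, a call lost in 5 of the 6 fits without 1 replicate, all but that without WT IgG replicate 4), and fell by 3.09 in A159V against WT under anti-PD1 (adjusted p = 0.000778). These levels were low. Some leukocyte markers, such as Ptprc, were also highest in WT anti-PD1. The summed leukocyte markers of both A159V groups overlapped those of WT anti-PD1, though Irs2 did not. The part of other cells in the Irs2 values was not tested.

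In the energy stress list, 2 of 10 rose and 1 fell under IgG and none was called under anti-PD1 by edgeR, DESeq2 or voom, where 3 had an unadjusted p under 0.05. Of all 14340 genes, 5786 had an unadjusted p under 0.05 under IgG and 5133 under anti-PD1. Stk11, which encodes the AMPK-activating kinase LKB1, fell by 0.58 under IgG (adjusted p = 0.00654). Its call was lost when the 2 IgG groups were fitted alone (adjusted p = 0.0588). Ddit4 (REDD1), a stress-induced inhibitor that works through the TSC complex, was -0.52 ± 0.20 and -0.41 ± 0.20, neither called by edgeR with TMM scaling (adjusted p = 0.0747 and 0.168). Under IgG it was called by DESeq2 (-0.59, adjusted p = 0.0266) and with RLE (adjusted p = 0.049) or upper-quartile scaling (adjusted p = 0.0412). Of the mTORC2 and assembly genes, 1 of 5 rose under IgG, a call absent with RLE or upper-quartile scaling and without WT IgG replicate 1 or 2. Under anti-PD1 none was called by edgeR, 2 had an unadjusted p under 0.05, and DESeq2 and voom each called 1. Rictor, the subunit that defines mTORC2, measured 26.0, 39.8 and 71.3 CPM in WT IgG, the group with the widest spread, and was -0.82 ± 0.29 under anti-PD1 (adjusted p = 0.0577). It was called there by DESeq2 (-0.89, adjusted p = 0.0152), by voom (adjusted p = 0.0483) and with RLE or upper-quartile scaling (adjusted p = 0.0419 and 0.0328). Neither of the 2 TSC and RHEB partners was called in either genotype comparison by edgeR, with 1 at an unadjusted p under 0.05 in each. DESeq2 called 1 lower under IgG, as did RLE and upper-quartile scaling, and 0 under anti-PD1.

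Over the 12 samples the closest pair among the 9 tested genes was Mtor and Tsc2, with Pearson's r of 0.97 in log2 CPM, and the most opposed were Akt1s1 and Deptor, with r of -0.92. The samples share 4 groups and the length trend of WT IgG replicate 1, so these are descriptions. The genes most like Mtor were Ccdc93 (r = 0.99), Dnajc16 and Bcor (0.98 each), Cachd1 (0.98) and Arhgef18 (0.98). Among all tested genes Tsc2 was closest to Copg1 (0.99), Akt1s1 to Elp6 (0.99), Rheb to Tra2b (0.99), Tsc1 to Vps13d (0.98), Rragc to Ythdf2 (0.98), Deptor to Slc22a5 (0.97), Rptor to Sipa1l3 (0.95) and Mlst8 to Plcb3 (0.92).

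Many genes beside Mtor on distal chromosome 4 were called higher in A159V, and none lower. Of 43 other tested genes within 1 Mb of Mtor, 18 were called higher and 0 lower under IgG, and 20 higher and 0 lower under anti-PD1, against 15.6% and 11.2% of all genes called higher. The difference was above 0 for 35 and 39 of the 43. The median log2 difference was 0.46 under IgG and 0.62 under anti-PD1, against 0.02 and 0.06 over all genes. Exosc10, an exosome nuclease gene that starts at position 148558429, rose by 0.69 and 0.72 (adjusted p = 0.001 and 0.000846). Under IgG, Ube4b, Pgd and Mfn2 rose by 1.01, 0.77 and 0.79 (adjusted p = 0.000362, 0.00104 and 0.00106). Under anti-PD1, Pgd, Lzic and Dffa rose by 0.76, 0.75 and 0.79 (adjusted p = 0.00129, 0.00158 and 0.00209). At 0.93, Mtor lay above its neighbours' median under IgG and, at 0.35, below it under anti-PD1. Whether the genes share a cause was not tested.

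**Figure D4:**
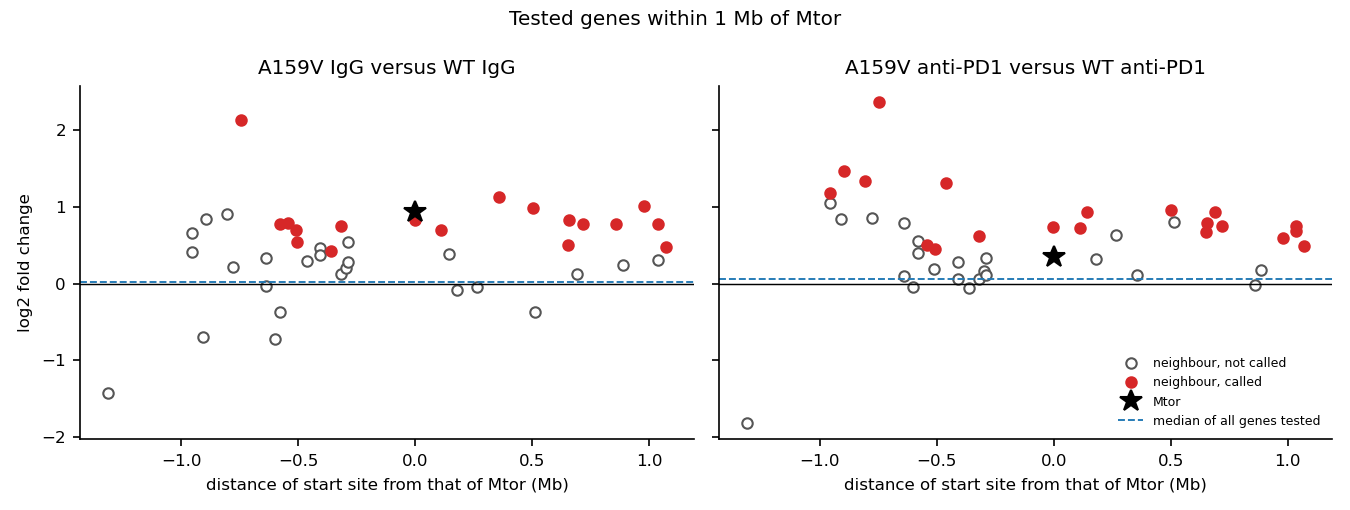
Log2 fold change (y axis) of the tested genes within 1 Mb of Mtor against the distance of their start site from that of Mtor (x axis, Mb), with called genes in red, Mtor as a star and the median of all genes tested as a dashed line. Called neighbours lay above 0 on both sides of Mtor in both genotype comparisons, 18 under IgG and 20 under anti-PD1.

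Within 1 Mb of Tsc2, a window that also holds Mlst8, 9 of 70 tested genes were higher and 9 lower under IgG, with a median of -0.08, and 13 higher and 2 lower under anti-PD1, with a median of 0.17. Ccnf was the neighbour with the smallest p in both, at 0.62 and 0.80. Around Rptor 5 of 59 were higher and 8 lower under IgG and 3 higher and 5 lower under anti-PD1, led by Baiap2 at -1.54 and -1.61. Around Akt1s1 it was 9 higher and 7 lower of 83 under IgG and 6 higher and 8 lower under anti-PD1. Rheb, Tsc1 and Rragc had 4 of 28, 6 of 21 and 3 of 23 neighbours higher and 0, 1 and 1 lower under IgG. Deptor had 6 tested neighbours, of which Enpp2 fell by 2.02 (adjusted p = 0.0029) and Col14a1 fell by 3.71 (adjusted p = 0.0271) under IgG, and Enpp2 fell by 3.76 under anti-PD1 (adjusted p = 8.46e-05).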

How the data were processed

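As the study's methods state, RNA was poly(A)-selected and sequenced in paired reads of 100 bases, which the authors aligned to mm10 with STAR, handled with Samtools and counted per gene with summarizeOverlaps. The authors deposited raw counts, not normalized, as 1 table; strand and counting mode are not stated. Each column name matched the label of 1 sample, and that label gave its group. Of 33219 rows, 32064 matched a symbol in GENCODE M21, the source of coordinates, exon lengths and overlaps. Counts were tested with edgeR 4.0.16 (R 4.3.3): TMM scaling, the default expression filter (14340 genes), a quasi-likelihood fit of 4 groups to the 12 samples together (residual degrees of freedom, 8), and Benjamini-Hochberg adjustment over all tested genes in each of 5 contrasts. SE is the size of the log2 fold change divided by the square root of F. The study names DESeq2, which is given as an alternative (1.42.0), as is voom with limma 3.58.1. Log2 CPM for correlations used a prior count of 2. Samples are separate mice by the methods.

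The 10 genes and all lists were chosen with earlier results of these data known. The rule for named genes was: the 10 genes; pathway genes called, up to 6 per comparison and direction by smallest p; Rraga, Rragb, Rictor, Rps6kb1, Eif4ebp1, Ddit4, Tfeb and Flcn regardless; the 5 genes with the highest r to Mtor and 1 for each other gene; and up to 4 called neighbours within 1 Mb. 1 gene that the rule names is not reported here. Akt1 under IgG is given beside its anti-PD1 value. On simulated counts for A159V IgG versus WT IgG over 14340 genes, with 100 genes changed at each size, the fit recovered 49% of log2 changes of 1 and 2% of changes of 0.5, with 2 false calls. Alternatives covered scaling, filters, tools, samples in the fit, a leukocyte score, the replicate block, exon length and each replicate left out. The counts of each pathway list under other scalings and tools and without single libraries were added after seeing the data.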

Additional observations from a re-analysis of the deposited data

How the results depend on the processing

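Of 792 alternative values for the 45 gene and comparison pairs, 758 kept the call, 9 lost one and 25 gained one, and no called value changed sign. For the named pathway genes, 626 of 728 kept the call, 70 lost one and 32 gained one. With only the groups of a comparison in the fit, called genes of the 9 went from 2 to 0 under IgG and from 1 to 2 under anti-PD1, and pathway genes from 29 to 5, from 19 to 37 and, in WT between treatments, from 1 to 0. Calls over all genes moved the same way, from 4010 to 1399 of 13575, from 3075 to 5320 of 13833 and from 90 to 0. With the leukocyte score, calls went to 1 and 0 of the 9, to 11, 0 and 0 pathway genes and to 1644, 2 and 0 of all genes. With exon length removed, 2 of the 9 were called under anti-PD1 and 4 pathway genes in WT between treatments, and also leaving out WT IgG replicate 1, chosen after seeing the data, gave 0 of the latter. Over all genes these gave 3319, 176 and 1 calls. In WT between treatments, no filter gave 1 of the 9 and 3 pathway genes, 10 counts in every sample 0 pathway genes, DESeq2 1 and 14, and voom 1 of the 9. Over all genes these gave 771, 25, 1478 and 188 calls. For the interaction DESeq2 gave 1 and 2, and 295 over all genes. Leaving out 1 replicate gave 2 to 3 and 15 to 33 calls under IgG, 0 to 1 and 8 to 13 under anti-PD1, 0 to 5 and 0 to 28 in WT between treatments (5 and 28 without WT IgG replicate 4, at most 0 pathway genes otherwise), 0 to 0 in A159V, and 0 to 1 and 0 to 15 for the interaction. Calls over all genes were then 2578 to 4717, 1519 to 2171, 1 to 3458, 0 to 0 and 0 to 1182 in the same order. The cause of these moves was not tested.

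The labels number the replicates, but same-numbered samples correlated only from -0.178 to 0.205 in their deviations from group means. No pairing was seen, but with 3 samples a group this check cannot exclude one. No other group holds the number of WT IgG replicate 4 or of A159V IgG replicate 5. A block on the number fits these libraries exactly and in effect leaves them out. With the replicate number as a block, calls were 4 of the 9 and 45 pathway genes under IgG, 2 and 34 under anti-PD1, 6 and 36 in WT between treatments, 0 and 0 in A159V, and 2 and 23 for the interaction. Over all 14340 genes the block gave 5867, 5018, 4650, 0 and 2760 calls in the same order, against 4010, 3075, 90, 0 and 1 without it. The fold change limit, RLE and upper-quartile scaling moved none of the main counts of the 9 or of the pathway genes by over 1.5 times. On simulated counts, with 100 genes changed at each size, log2 changes of 0.5 were rarely recovered. In the data 4010 of 14340 genes were called under IgG, which makes the adjustment less strict. The simulated recovery therefore does not give the power of these comparisons.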
